A study of Mus musculus with 12 samples.

Results

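The 10 genes described here make and load the classical MHC class I molecules of the mouse. They are H2-K1, H2-D1, B2m, Tap1, Tap2, Tapbp, Nlrc5, Psmb8, Psmb9 and Psmb10. They are listed by symbol, and all 10 were found among the 35907 genes to which the transcripts could be assigned. All 10 passed the filter on low counts in every comparison, so none is missing from the results.

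MHC class I molecules show peptides from inside a cell to CD8 T cells. Each consists of a polymorphic heavy chain, here H2-K1 or H2-D1, and the invariant light chain beta-2 microglobulin, which is encoded by B2m. The proteasome cuts proteins into peptides, and after exposure to interferon-gamma its catalytic subunits are replaced by Psmb8 (LMP7), Psmb9 (LMP2) and Psmb10 (MECL-1), which form the immunoproteasome. Tap1 and Tap2 form the transporter that brings peptides into the endoplasmic reticulum, and tapasin, encoded by Tapbp, tethers empty class I molecules to it. Nlrc5 is a transactivator that acts on the promoters of class I genes. In an MHC-mismatched transplant class I heavy chains are also among the alloantigens, those of the host being foreign to donor T cells. The donor allele of a heavy chain is used to tell donor cells from host cells.

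RNA was sequenced from 12 libraries in 4 groups of 3, labelled WT Pre-Tx, TCF-1 cKO Pre-Tx, WT Post-Tx and TCF-1 cKO Post-Tx. TCF-1 cKO mice are C57BL/6 mice whose floxed Tcf7, the gene of TCF-1, is removed by CD4cre, a recombinase that the Cd4 promoter drives, so that CD4 and CD8 T cells lose it from the double-positive stage in the thymus. Pre-Tx cells came from the spleens of donor mice, and Post-Tx cells were sorted back at day 7 from the spleens of lethally irradiated BALB/c recipients that had been given CD3 donor T cells of the same genotypes. Donor mice carry the H2-b haplotype and recipients H2-d, and in the Post-Tx sort an antibody to H2-Kb, the protein product of H2-K1, was part of the gate in both genotypes. H2-K1 is therefore a gene on whose protein the Post-Tx cells were selected. The paper's transplants also gave T cell-depleted bone marrow of WT C57BL/6 mice, whose cells carry H2-Kb too. H2-Kb alone therefore does not tell the labelled donor T cells from cells of that marrow, and the paper also names CD3, CD4 and CD8. The labels number biological replicates but do not name the mice in each, so the p-values measure the spread between these samples, and part of it may be technical.

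The libraries held 17103415 to 49486745 estimated counts each, and those of WT Post-Tx were the deepest. Tcf7 lay between 109 and 197 CPM (counts relative to the total of the library) in all 12 libraries. It had 159 ± 21.5 in TCF-1 cKO Pre-Tx, 161 ± 44.1 in WT Pre-Tx, 131 ± 19.5 in TCF-1 cKO Post-Tx and 158 ± 12.6 in WT Post-Tx (SD, n = 3 each). Counts of whole transcripts may not show the loss of a floxed part, and single exons were not examined. The genotypes are therefore given as labelled, and every direction below rests on the labels. All samples are labelled CD4 T cells, while the methods name CD8 T cells for the Post-Tx sort and the design text of the series names CD8 T cells for the Pre-Tx sort. In the Pre-Tx libraries Cd79a, a B cell receptor subunit, stood at 2048 to 2556 CPM, Cd3e at 105 to 309, Cd4 at 65.2 to 151 and Cd8a at 71.1 to 166, so these libraries held little T cell RNA beside that of B cells. In the Post-Tx libraries Cd4 stood at 706 to 1160 CPM, Cd8a at 1.04 to 15.4 and Cd79a at 1.46 to 3.58. The 12 B cell markers summed to 39713 to 45761 CPM in the 6 Pre-Tx libraries and to 1542 to 1927 in the 6 Post-Tx libraries. Class I genes are used by all these cell types, so a Pre-Tx level is a level in a mixture.

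**Figure D1:**
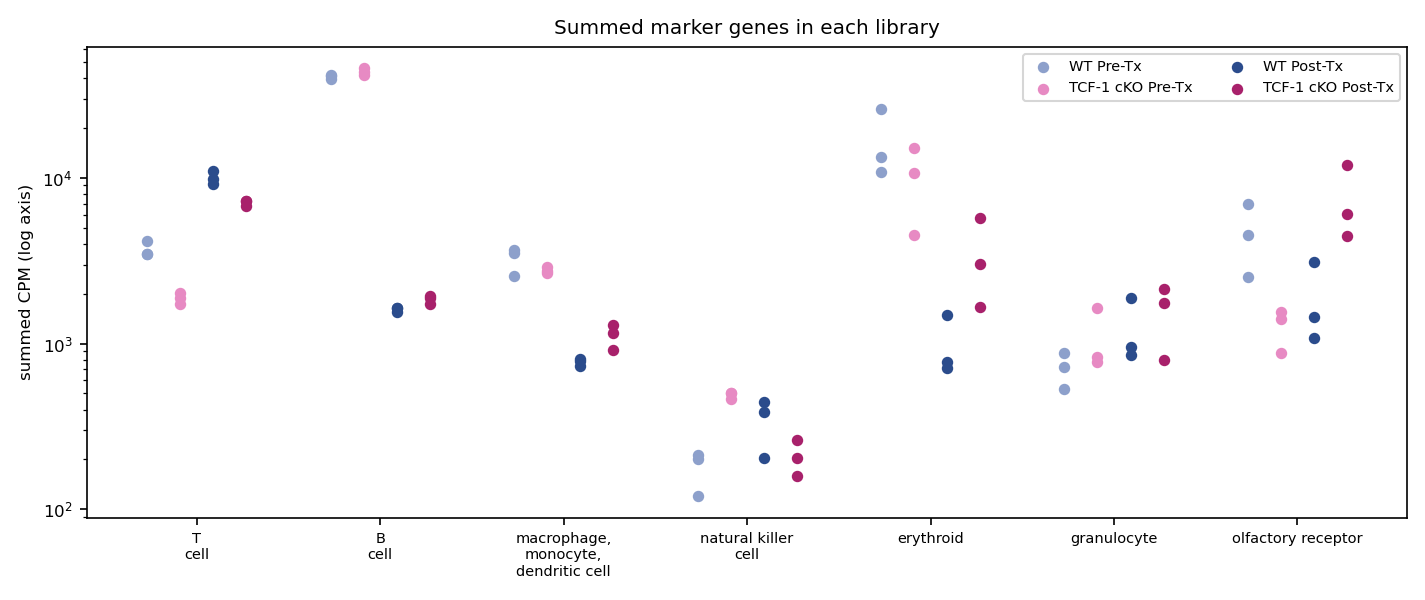
Summed CPM of marker genes of 6 cell types and of the olfactory receptor genes (horizontal axis) in the 12 libraries, with a logarithmic vertical axis, with 1 point per library and 1 colour per group. B cell markers lie between 39713 and 45761 CPM in the Pre-Tx libraries and between 1542 and 1927 in the Post-Tx libraries, and after transplant the TCF-1 cKO libraries lie below WT for T cell markers and above it for olfactory receptor genes.

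Of the 10 genes, 7 lie on chromosome 17 of GRCm38, in the MHC. H2-K1 lies at 33996017 to 34000347 on the minus strand and H2-D1 at 35262730 to 35267499 on the plus strand. Between them lie Psmb9 (34181987 to 34187764, minus strand), Tap1 (34187553 to 34197225), Psmb8 (34197721 to 34201454) and Tap2 (34203527 to 34216321), which lie side by side. Tapbp lies just outside H2-K1, at 33915899 to 33929292. B2m is on chromosome 2 (122147686 to 122153083), and Nlrc5 (94434356 to 94527272) and Psmb10 (105935735 to 105938444, minus strand) are on chromosome 8. Psmb9 and Tap1 overlap by 212 bases on opposite strands, and the library kit does not mark strand, so reads from the overlap could not be told apart. The span of Tapbp also overlaps Zbtb22 by 3422 bases on the same strand (339 to 1275 counts of Zbtb22 per library). That of B2m overlaps Patl2 by 5398 bases on the opposite strand (0 to 83 counts of Patl2).

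The promoters of the 3 chains of the class I molecule are shown here because these are the genes, with Nlrc5, that were called in the comparisons below. Each window holds 250 bases before and 50 after the transcription start of RefSeq on GRCm38.p6. Motifs found by letters on either strand are in capitals. The first 2 windows are chr17:34000298-34000597 on the minus strand and chr17:35262844-35263143 on the plus strand, and the third is chr2:122147437-122147736 on the plus strand.
H2-K1: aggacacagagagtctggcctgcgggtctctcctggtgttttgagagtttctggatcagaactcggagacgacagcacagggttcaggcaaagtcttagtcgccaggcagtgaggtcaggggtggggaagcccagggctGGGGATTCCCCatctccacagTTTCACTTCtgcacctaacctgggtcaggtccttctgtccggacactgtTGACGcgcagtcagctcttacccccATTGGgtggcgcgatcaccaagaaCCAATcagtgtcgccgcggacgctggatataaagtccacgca
H2-D1: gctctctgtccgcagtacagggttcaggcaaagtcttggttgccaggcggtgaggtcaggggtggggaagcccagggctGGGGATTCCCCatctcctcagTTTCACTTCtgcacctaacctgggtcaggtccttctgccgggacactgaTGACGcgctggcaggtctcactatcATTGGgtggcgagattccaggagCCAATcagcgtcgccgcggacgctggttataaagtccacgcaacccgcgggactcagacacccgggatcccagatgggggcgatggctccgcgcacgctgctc
B2m: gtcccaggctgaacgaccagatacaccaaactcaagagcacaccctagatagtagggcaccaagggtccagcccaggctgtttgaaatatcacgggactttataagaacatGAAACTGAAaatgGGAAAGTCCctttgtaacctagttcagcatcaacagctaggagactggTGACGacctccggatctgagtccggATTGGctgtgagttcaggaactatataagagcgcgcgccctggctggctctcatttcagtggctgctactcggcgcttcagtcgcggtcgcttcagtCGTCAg

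The windows of the 2 heavy chains are near copies of each other, with 211 of 239 aligned bases identical (88.3%) and 1 gap base. Both hold a match to an interferon response element (GAANNGAAA), 90 bases before the start in H2-K1 and 150 before it in H2-D1, and next to it a match to the NF-kB site (GGANTNNCC), 111 and 171 bases before the start. B2m holds the other form of the interferon response element (GAAANNGAA) 139 bases and an NF-kB match 126 bases before its start. Of 32851 RefSeq windows of this length, 7.52% held the first form, 8.56% the second and 13.0% the NF-kB letters, on either strand. All 3 also hold CCAAT (37.4% of windows) and TGACG (20.8%), the core letters of 2 of the boxes to which the factors of the class I enhanceosome bind. Among the 8 of 10 genes with a window in the table, Tap1 and Psmb9 also held TGACG and CCAAT, Tapbp held CCAAT, and Psmb8 held the gamma-activated site letters TTCNNNGAA (8.3% of windows), 97 bases before its start. The windows of Tap1 and Psmb9 overlap by 275 bases on opposite strands. A match is a description of the letters and not evidence of binding.

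Per transcript length, the 2 heavy chains and their light chain were the most abundant of the 10. In WT Post-Tx, H2-D1 stood at 6658 ± 737 TPM (transcript abundance per length, SD, n = 3), H2-K1 at 4606 ± 560 and B2m at 3234 ± 409, and the ranges of these neighbours did not overlap. Psmb8 followed with 1880 ± 203 TPM. Psmb9 with 602 ± 86.6, Psmb10 with 524 ± 67.2 and Tapbp with 470 ± 18.4 TPM came next, and the ranges of neighbours in this order overlapped. Tap1 with 329 ± 37.9 and Tap2 with 266 ± 50.8 TPM also overlapped, and Nlrc5 was by far the lowest with 29.1 ± 8.24 TPM. In WT Pre-Tx the order from H2-D1, at 5121 ± 671 TPM, down to Psmb8 was the same, with B2m (1529 ± 290) and Psmb8 (1321 ± 111) overlapping, and Nlrc5 was again lowest, at 8.99 ± 1.34 TPM. The 10 genes together took 1.69% to 2.41% of all counts of a library. In Post-Tx they took 1.73% to 1.92% in TCF-1 cKO and 2.05% to 2.41% in WT, with no overlap.

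Large parts of the counts of 3 genes were assigned by the pseudoaligner to transcript models that the annotation does not call protein coding. Over the 12 libraries the median share was 80.5% for a retained-intron model of Tap2, 65.1% for a nonsense-mediated decay model of Psmb9 and 49.7% for a retained-intron model of Psmb8. These shares were steady between libraries, with ranges of 79.3% to 82.7%, 63.4% to 67.5% and 48.2% to 54.0%. Smaller shares went to such models of other genes, among them retained-intron models of Nlrc5 (up to 18.1%) and Psmb10 (up to 9.92%) and a processed transcript of Tapbp (up to 8.24%). The gene values given here sum all models. Heavy chain genes are close in sequence, so reads may be split among them.

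After transplant the class I genes stood lower in the libraries labelled TCF-1 cKO, with 1 of 10 passing the test. All 10 fitted values were below 0, from -0.82 for H2-K1 to -0.51 for Tapbp on the log2 scale, with a median of -0.67. H2-K1 fell by 0.82 on the log2 scale (SE, the standard error, 0.24, adjusted p = 0.0461 by edgeR quasi-likelihood), and the other 9 had adjusted p of 0.0605 to 0.136. Over all genes tested in this comparison 3.13% were called lower. Normalized CPM, which are CPM scaled by TMM over the 12 libraries, are given for single libraries in the order of the replicate numbers.

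H2-K1, a heavy chain, stood at 3614, 2910 and 3265 normalized CPM in TCF-1 cKO Post-Tx, against 6738, 4605 and 5978 in WT Post-Tx. Every TCF-1 cKO library was below every WT library. H2-D1, the other heavy chain, stood at 7332, 6353 and 5891 in TCF-1 cKO and at 12100, 8448 and 11110 in WT. Its groups did not overlap either, and its log2 fold change was -0.69 (SE 0.24, adjusted p = 0.0726). B2m stood at 1372, 1044 and 1436 in TCF-1 cKO and at 1694, 1582 and 2307 in WT, with a log2 fold change of -0.52 (adjusted p = 0.136). For the light chain, too, the groups stood apart. In all 3 genes WT replicate 2 was the lowest of the WT libraries.

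Of the loading genes, the transporter subunit Tap1 stood at 549, 521 and 442 normalized CPM in TCF-1 cKO Post-Tx, against 934, 702 and 810 in WT Post-Tx (log2 fold change -0.69, adjusted p = 0.0605). Tap2 ran from 313 to 461 in TCF-1 cKO and from 485 to 754 in WT, and Tapbp from 607 to 844 and from 901 to 1078. None of these 3 overlapped between the genotypes. Of the immunoproteasome subunits, Psmb8 ran from 917 to 1124 in TCF-1 cKO and from 1233 to 1775 in WT, again without overlap. Psmb9 (280 to 428 against 372 to 594) and Psmb10 (220 to 330 against 314 to 484) overlapped. Nlrc5 stood at 106, 94.9 and 89.1 in TCF-1 cKO and at 214, 104 and 170 in WT, so that WT replicate 2 lay within the TCF-1 cKO range. In all, 7 of the 10 genes were lower in every TCF-1 cKO library, where 16.9% of all genes tested were. This share was not computed over abundant genes alone, whose shift is given below.

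**Figure D2:**
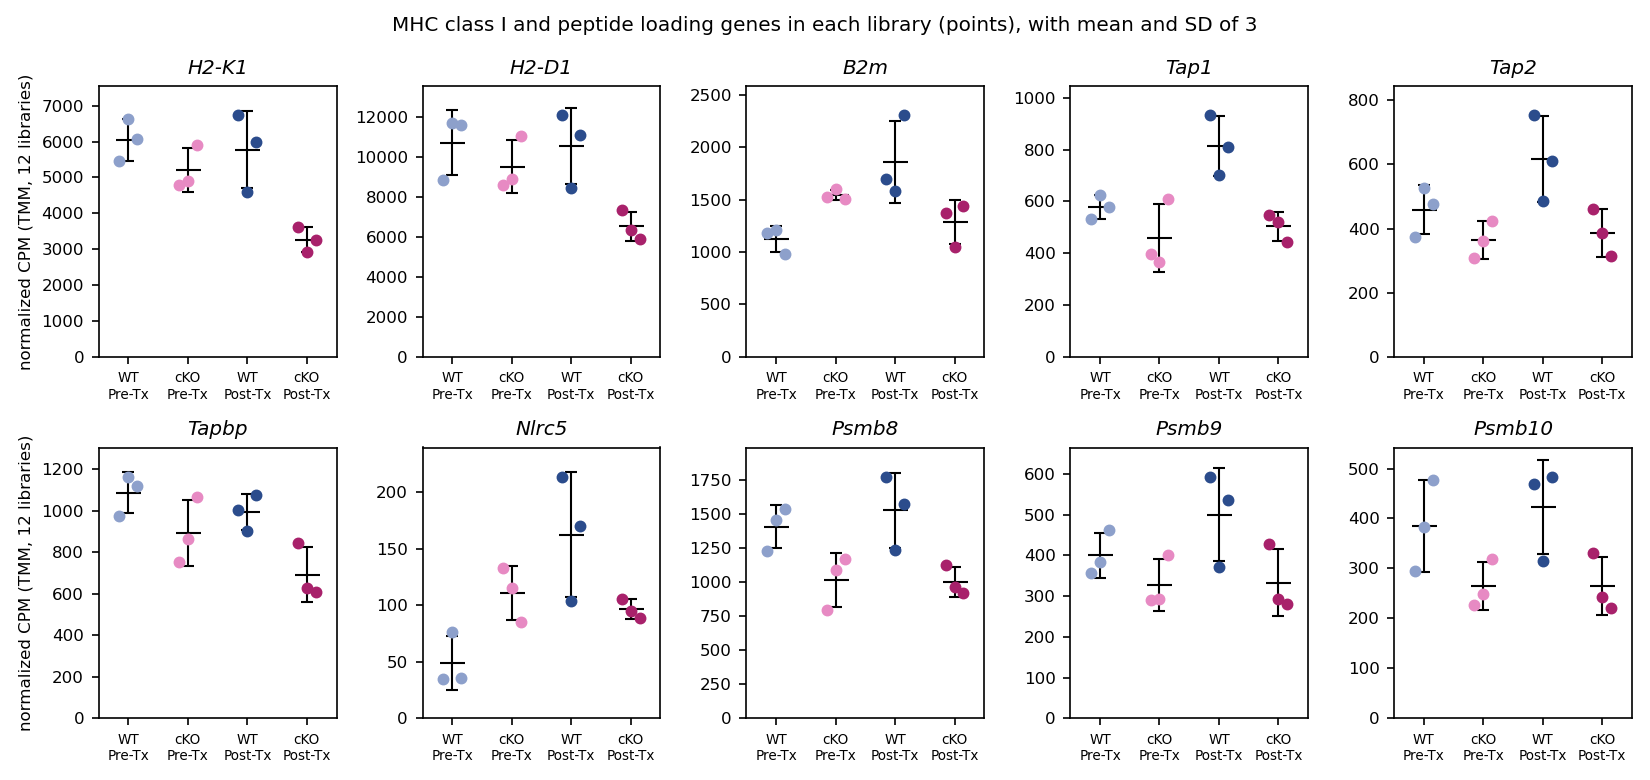
Normalized CPM (vertical axis, linear, from 0) of each of the 10 genes in the 12 libraries, with 1 point per library, the 4 groups on the horizontal axis, and the mean and SD of 3 libraries as a bar. After transplant 7 genes lie lower in each TCF-1 cKO library than in each WT library, H2-K1 from 2910 to 3614 against 4605 to 6738, while before transplant Nlrc5 lies higher in TCF-1 cKO, from 85.4 to 133 against 34.4 to 76.4.

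These values stand against a shift of most abundant genes in the same direction. Of 1984 genes whose mean CPM was 100 or more, 297 were called lower and 50 higher, and their median log2 fold change was -0.54, against -0.67 for the 10 class I genes and 0.09 for all 19287 genes tested. At an unadjusted p under 0.05 all 10 class I genes were lower, as were 57.7% of the abundant genes and 15.2% of all genes tested. Upper-quartile normalization moved the median of all genes by 0.28. All 10 values then stayed below 0 (-0.54 for H2-K1, adjusted p = 0.0781), and none passed by edgeR, while 3 had an unadjusted p under 0.05. Relative to the median of all genes the values were -0.91 for H2-K1 and -0.61 for B2m and Tapbp under either scaling. A change of scaling moves all genes by about the same amount, so this agreement was fixed in advance and is no support. Over all genes 679 were called higher and 604 lower, and 687 and 111 with upper-quartile normalization.

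The call of H2-K1 rested on single libraries. Its adjusted p was 0.0581 without TCF-1 cKO replicate 1, 0.193 without replicate 2 and 0.148 without replicate 3, and with WT replicate 1 or 3 left out it was 0.144 or 0.116, with log2 fold changes of -0.95 to -0.69. Without WT replicate 2 it was 0.0227, at -0.97, and 6 of the 10 genes were called lower, where 6.07% of all genes tested were. The direction of all 10 genes was the same in each of these fits. DESeq2 and voom with limma each called 7 of the 10 lower, and of all genes tested they called 9.32% and 6.73% lower. With the replicate number as a block all 10 were called lower, as were 1795 of 19287 genes. For these settings shares over abundant genes alone were not computed.

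Markers of T cells stood lower with the class I genes. Of 12 T cell markers 11 fell in TCF-1 cKO Post-Tx, and their sum was 6803 to 7291 CPM against 9139 to 11041 in WT Post-Tx. With upper-quartile normalization 3 and on TPM 2 were called lower, and with 1 library left out 0 to 11. The other marker, Cd8a, had a log2 fold change of 1.22 in the opposite direction, which did not pass (adjusted p = 0.163), with 12.9, 9.23 and 7.94 normalized CPM against 5.04, 6.36 and 1.19. Of 8 erythroid markers 5 rose, with sums of 1654 to 5761 against 709 to 1478 CPM, and 1 of 12 macrophage, monocyte and dendritic cell markers rose, with sums of 920 to 1302 against 732 to 805 CPM. Of 6 natural killer cell markers tested 1 fell, with sums of 159 to 263 against 203 to 442 CPM over all 8. With 1 library left out 0 to 5 erythroid and 0 to 1 macrophage, monocyte and dendritic cell markers were called higher. Of natural killer cell markers 0 to 1 were then called lower. Genes of olfactory receptors, which belong to sensory neurons, summed to 4468 to 11984 CPM in TCF-1 cKO Post-Tx, against 1084 to 3125 in WT Post-Tx, the highest being TCF-1 cKO replicate 2. No T cell, erythroid or macrophage, monocyte and dendritic cell marker was at 0 in a whole group. The part of these in the class I result was not tested, and in bulk RNA fewer cells of a type and less RNA per cell cannot be told apart.

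Before transplant Nlrc5 was the 1 class I gene that passed, and it was higher in libraries with the TCF-1 cKO label. It stood at 133, 115 and 85.4 normalized CPM in TCF-1 cKO Pre-Tx against 34.4, 76.4 and 35.4 in WT Pre-Tx, with no overlap. The log2 fold change was 1.17 (SE 0.34, adjusted p = 0.0433 by edgeR quasi-likelihood). Of all 17021 genes tested 8.52% were called higher and 5.65% lower, and of the 1984 abundant genes 375 were called higher and 144 lower. The other 9 genes had log2 fold changes of -0.62 to 0.42 and adjusted p of 0.0943 to 0.397, and the median of the 10 was -0.35, against -0.11 for all genes and 0.05 for the 1984 abundant genes.

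B2m stood at 1526, 1597 and 1505 normalized CPM in TCF-1 cKO Pre-Tx, against 1181, 1212 and 980 in WT Pre-Tx. Its groups did not overlap and TCF-1 cKO was the higher, with a log2 fold change of 0.42 (SE 0.17, adjusted p = 0.114). The heavy chains did not share this order. H2-K1 stood at 4795, 4887 and 5906 in TCF-1 cKO and at 5457, 6633 and 6064 in WT, and H2-D1 ran from 8607 to 11041 and from 8851 to 11685, and both overlapped. Psmb8, at 792, 1086 and 1173 in TCF-1 cKO and at 1231, 1457 and 1536 in WT, was the 1 gene that was lower in every TCF-1 cKO library, with a log2 fold change of -0.53 (adjusted p = 0.0943). Tap1, Tap2, Tapbp, Psmb9 and Psmb10 overlapped, with fitted values of -0.62 to -0.34. Being higher without overlap, as B2m and Nlrc5 were, was found for 21.3% of all genes tested, and being lower for 19.9%.

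The call of Nlrc5 was lost without TCF-1 cKO replicate 1 (adjusted p = 0.122), without TCF-1 cKO replicate 2 (0.0905), and with WT replicate 1 (0.161) or 3 (0.12) left out, with log2 fold changes of 0.95 to 1.18. It held with TCF-1 cKO replicate 3 left out (0.0457) and with WT replicate 2 left out (0.0231), where the log2 fold change was 1.64. Upper-quartile normalization moved the median of all genes by -0.36. With it Nlrc5 stood at 0.81 (adjusted p = 0.0896) and 6 of the 10 genes were called lower, where 12.2% of all genes tested were. On log2(TPM + 1) with limma Nlrc5 also had 0.81 and did not pass (adjusted p = 0.118), and B2m was the 1 gene called, at 0.71 (adjusted p = 0.0321), where 10.2% of all genes tested were called higher. Relative to the median of all genes, Nlrc5 was at 1.28 under either scaling, an agreement that was again fixed in advance. Over all genes 1451 were called higher and 962 lower, and 636 and 2070 with upper-quartile normalization.

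Markers of several cell types moved in the same comparison. Of 12 B cell markers 4 rose in TCF-1 cKO Pre-Tx (sums of 41830 to 45761 against 39713 to 41643 CPM), of 8 natural killer cell markers 3 rose (466 to 502 against 120 to 213 CPM), and of 12 T cell markers 7 fell (1742 to 2028 against 3453 to 4178 CPM). Of 12 macrophage, monocyte and dendritic cell markers 2 rose (2667 to 2904 against 2562 to 3683 CPM), as did 1 of 8 granulocyte markers (772 to 1640 against 535 to 883 CPM). With upper-quartile normalization 4 B cell and 2 natural killer cell markers were called higher, and 1 B cell and 9 T cell markers lower. With 1 library left out 0 to 4 B cell and 0 to 3 natural killer cell markers were called higher. Of T cell markers 0 to 7 were then called lower. Over all genes 8.52% were called higher and 5.65% lower, and over the 1984 abundant genes 375 and 144 were. Olfactory receptor genes summed to 877 to 1546 CPM in TCF-1 cKO Pre-Tx, against 2525 to 6990 in WT Pre-Tx. Their part in the values of Nlrc5 and B2m was not tested.

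The genotype difference of Nlrc5 and of B2m itself changed with transplant. The interaction, which is the log2 fold change of TCF-1 cKO over WT after transplant minus that before, was -1.94 for Nlrc5 (SE 0.46, adjusted p = 0.00843 by edgeR quasi-likelihood on all 12 libraries) and -0.99 for B2m (SE 0.28, adjusted p = 0.0177). For the other 8 genes it ran from -0.60 for H2-K1 to -0.13 for Psmb10, with adjusted p of 0.0858 to 0.793. The interaction of H2-D1 was -0.52 (adjusted p = 0.139). Of all 21434 genes tested 11.5% were called lower in this contrast. Of the 1984 abundant genes 695 were called lower and 61 higher. The median of the interaction was 0.37 over all genes, -0.66 over the abundant genes and -0.35 over the 10 class I genes.

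The interaction of Nlrc5 passed with each of the 12 libraries left out in turn, with values of -2.45 to -1.71 and adjusted p of 0.000956 to 0.0283. That of B2m did not pass without TCF-1 cKO Post-Tx replicate 2 (-0.87, adjusted p = 0.0548) or without WT Post-Tx replicate 3 (-0.83, adjusted p = 0.0584). Upper-quartile normalization moved the median of all genes by 0.67. It left Nlrc5 at -1.28 (adjusted p = 0.0359) and B2m at -0.31 (adjusted p = 0.332), and the other 8 genes then had values above 0. On TPM, tested as log2(TPM + 1) with limma, B2m had -0.90 (adjusted p = 0.0256) and Nlrc5 -0.97 (adjusted p = 0.0837).

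**Figure D3:**
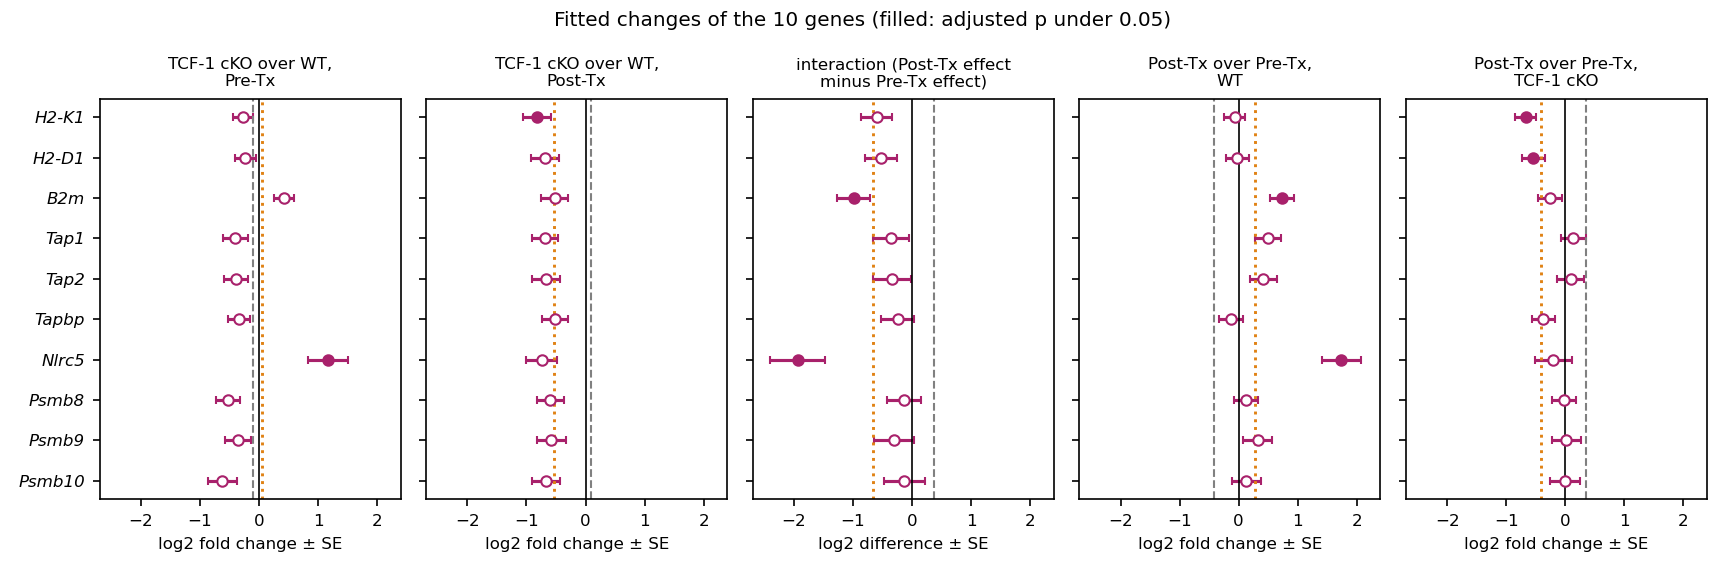
Log2 fold changes with standard errors (horizontal axis) of the 10 genes in the 2 genotype comparisons, the interaction and the 2 transplant comparisons, with filled points for an adjusted p under 0.05. The dashed gray line is the median of all genes tested and the dotted orange line that of genes whose mean CPM was 100 or more, and after transplant all 10 genes lie left of 0, between -0.82 and -0.51, beside the dotted line at -0.54.

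With transplant, Nlrc5 and B2m rose in WT and the heavy chains fell in TCF-1 cKO. Pre-Tx and Post-Tx differ in host, day, activation and B cell content, and these cannot be told apart. In WT, Nlrc5 went from 34.4, 76.4 and 35.4 to 214, 104 and 170 normalized CPM, a log2 fold change of 1.74 (SE 0.33, adjusted p = 0.00113 by edgeR quasi-likelihood), and B2m rose by 0.73 (SE 0.20, adjusted p = 0.0144). The other 8 genes had -0.13 to 0.50, and 11.6% of all genes were called higher. Of the 1984 abundant genes 637 were called higher and 304 lower in WT, with a median of 0.27. In TCF-1 cKO, H2-K1 fell by 0.67 (SE 0.18, adjusted p = 0.0149) and H2-D1 by 0.54 (SE 0.19, adjusted p = 0.0419). The other 8 genes had -0.37 to 0.14, and 12.5% of all genes were called lower. Of the 1984 abundant genes 675 were called lower and 202 higher in TCF-1 cKO, with a median of -0.41. Both transplant comparisons share their libraries with the genotype comparisons, so they do not add independent samples.

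The call of Nlrc5 in WT held with each library left out, with values of 1.50 to 2.40, and that of B2m was lost without WT Post-Tx replicate 3 (0.55, adjusted p = 0.107) and with upper-quartile normalization (0.42, adjusted p = 0.0787). In TCF-1 cKO the call of H2-K1 was lost without TCF-1 cKO Pre-Tx replicate 3 (-0.41, adjusted p = 0.129) and without TCF-1 cKO Post-Tx replicate 2 (-0.60, adjusted p = 0.0738). That of H2-D1 was lost in 7 of 12 such fits, with values of -0.65 to -0.26 over all 12. With upper-quartile normalization H2-K1 stood at -0.30 and H2-D1 at -0.17, neither of which passed. On TPM H2-K1 had -0.15 (adjusted p = 0.423) and H2-D1 -0.02 (adjusted p = 0.936). The counts of all 30 class I heavy chain genes, summed and fitted as 1 feature, fell by 0.53 in TCF-1 cKO with transplant (SE 0.18, adjusted p = 0.0388) and had 0.11 in WT (adjusted p = 0.666). Between the genotypes the sum had -0.71 after transplant (adjusted p = 0.0728) and -0.13 before it (adjusted p = 0.634).

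Ratios within a library do not depend on how libraries are scaled to each other, and 6 ratios of TPM were compared between the genotypes at both stages, 12 comparisons in all. With 3 against 3 libraries the smallest p of the exact test is 0.1, so not passing is no evidence that a ratio is equal. H2-K1 stood at 0.576 to 0.792 of H2-D1 over the 12 libraries, and the genotypes overlapped at both stages (log2 difference -0.04 before and -0.12 after transplant, p = 0.7 and 0.4, two-sided exact permutation test). Tap1 stood at 0.944 to 1.36 of Tap2, with log2 differences of -0.05 and -0.04 (exact p = 1 and 0.7). The proportion of the light chain varied more. B2m was 0.298, 0.300 and 0.235 of the summed heavy chains H2-K1 and H2-D1 in TCF-1 cKO Pre-Tx against 0.211, 0.177 and 0.138 in WT Pre-Tx, a log2 difference of 0.68, without overlap (exact p = 0.1, the smallest that 3 against 3 allow, and 0.4 adjusted over the 12). After transplant it was 0.326, 0.280 and 0.394 in TCF-1 cKO and 0.222, 0.313 and 0.339 in WT, which overlapped (log2 difference 0.20, exact p = 0.5).

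Immunoproteasome subunits were compared with the constitutive subunits they replace. Psmb8 stood at 3.53 to 4.63 times Psmb5 in all 12 libraries, with log2 differences of -0.04 before and -0.11 after transplant (exact p = 0.8 and 0.2). Psmb9 was 0.703, 0.560 and 0.731 of Psmb6 in TCF-1 cKO Pre-Tx against 0.501, 0.507 and 0.510 in WT Pre-Tx, a log2 difference of 0.38 without overlap (exact p = 0.1). Psmb6 itself, a constitutive subunit, fell in that comparison by 0.79 on the log2 scale (adjusted p = 0.0356 by edgeR quasi-likelihood). Psmb10 was 5.57, 3.61 and 6.17 times Psmb7 in TCF-1 cKO Pre-Tx against 7.60, 8.51 and 17.1 times in WT Pre-Tx, a log2 difference of -1.05 in the other direction, also without overlap (exact p = 0.1). After transplant both pairs overlapped between the genotypes, with log2 differences of -0.17 and -0.22 (exact p = 0.2 each). Each of the 12 adjusted p was 0.4 or more.

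**Figure D4:**
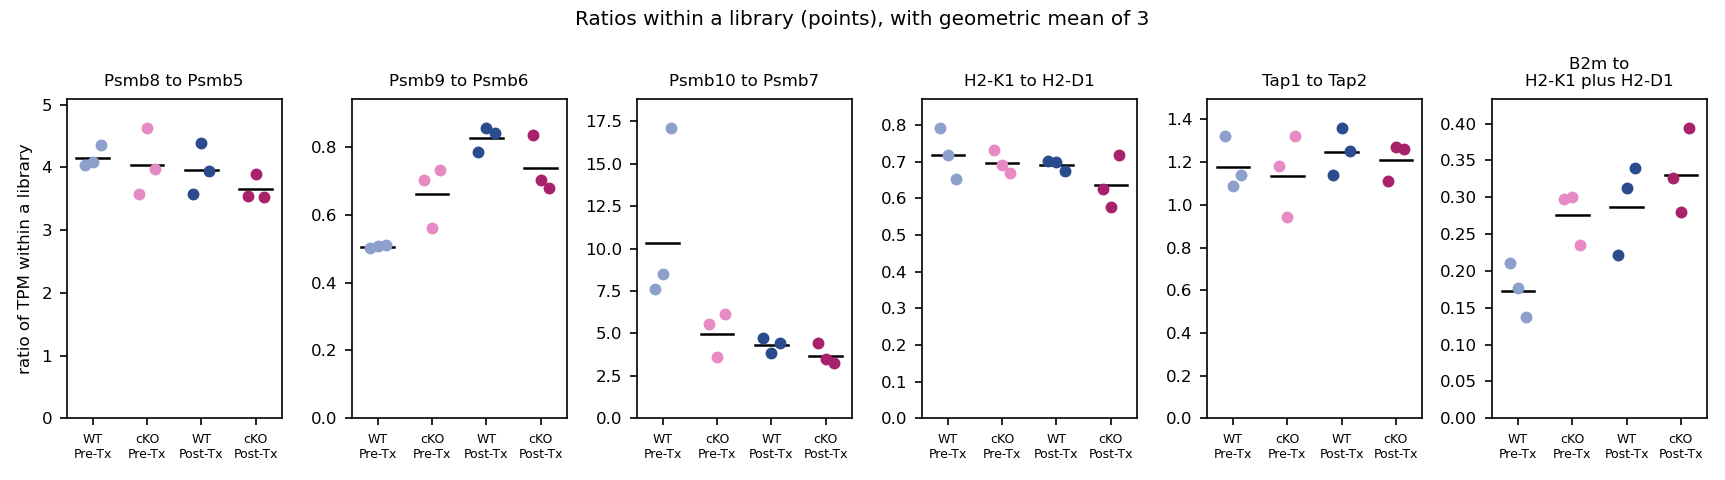
Ratio of TPM within a library (vertical axis, linear, from 0) for 6 pairs of genes, with 1 point per library, the 4 groups on the horizontal axis and the geometric mean of 3 libraries as a bar. Before transplant the ratio of B2m to the heavy chains lies at 0.235 to 0.300 in TCF-1 cKO and at 0.138 to 0.211 in WT, and the ratio of H2-K1 to H2-D1 stays between 0.576 and 0.792 throughout.

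Genes that act with the 10 were counted in lists. Over all genes tested, 8.52% were called higher before transplant, 3.13% lower after it and 11.5% lower in the interaction. Among 17 other class I and class I-like heavy chains, H2-Q6, a nonclassical class I gene, rose in TCF-1 cKO before transplant by 1.24 on the log2 scale (adjusted p = 0.00687 by edgeR quasi-likelihood) and fell after transplant by 0.77 (adjusted p = 0.0452). It was the 1 member of the list to pass in either comparison, of 15 tested before and 17 tested after transplant, and its interaction was -2.06 (adjusted p = 0.00119). Its call before transplant was lost without WT replicate 1 (adjusted p = 0.0703). Its call after transplant was lost with upper-quartile normalization (-0.49, adjusted p = 0.101), on TPM (-0.42, adjusted p = 0.124) and with each library but WT replicate 2 left out (adjusted p of 0.0715 to 0.175), while DESeq2 called 3 and voom with limma 2 of the 17 lower. H2-Q6 and H2-Q7 are close copies, so reads may have been shared between them. In the interaction 5 of the 17 were called lower, including H2-Q7 at -1.35, Cd1d1, which presents lipids, at -1.23 and H2-M3, which presents N-formyl peptides, at -0.95. The median of the list was -0.14, against 0.37 for all genes, and with upper-quartile normalization 1 was called lower and 2 higher. Of the 1984 abundant genes 695 were called lower in the interaction.

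Of 9 partners in folding, loading and trimming, 4 rose in TCF-1 cKO before transplant. These were Hspa5, the chaperone BiP, at 1.25, Pdia3 (ERp57), which joins tapasin in the loading complex, at 1.61, the chaperone Canx at 1.46, and Erap1, which trims peptides in the endoplasmic reticulum, at 1.69 (adjusted p of 0.00792 to 0.0155). With upper-quartile normalization 4 were also called higher, and with 1 library left out 0 to 4. The median of the list was 1.21, against -0.35 for the 10 class I genes and -0.11 for all genes. After transplant none of the 9 passed by edgeR, while 2 were lower at an unadjusted p under 0.05 and DESeq2 and voom with limma each called 1 lower, with a median of -0.38. The interaction of 5 was called lower, with -2.20 for Erap1, -1.64 for Pdia3, -1.63 for Canx and -1.41 for Hspa5, and with upper-quartile normalization 3 were. Of the 1984 abundant genes 375 were called higher before transplant and 695 lower in the interaction. After transplant 57.7% of the abundant genes were lower at an unadjusted p under 0.05 by edgeR.

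Of 8 standard catalytic, activator and assembly genes of the proteasome, Psmb6 alone passed before transplant and it fell, a call lost on TPM, without a filter on low counts and with any 1 library left out. None of the 8 passed after transplant by edgeR, with 4 lower at an unadjusted p under 0.05, 1 called lower by each of DESeq2 and voom with limma, and a median of -0.47. Of 16 interferon receptor, JAK-STAT and IRF genes, 3 rose in TCF-1 cKO before transplant, namely Ifngr1, a chain of the interferon-gamma receptor, at 1.07, the kinase gene Jak1 at 1.23 and Stat2 at 1.17. None of the 16 was called with upper-quartile normalization, 3 being higher and 3 lower at an unadjusted p under 0.05, while DESeq2 called 5 and voom with limma 4 higher, and with 1 library left out edgeR called 0 to 3. After transplant none of the 16 passed by edgeR, with 8 lower at an unadjusted p under 0.05 and 5 and 4 called lower by DESeq2 and by voom with limma. The interaction of 7 was called lower, among them Jak1 at -1.97, Ifnar1 at -1.74, Ifngr1 at -1.67 and Irf9 at -1.18, and with upper-quartile normalization 3 were. Among the 1984 abundant genes 375 were called higher before transplant and 695 lower in the interaction. At an unadjusted p under 0.05 by edgeR 57.7% of them were lower after transplant.

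Of 9 factors of the enhanceosome on class I and class II promoters and their relatives, 2 rose in TCF-1 cKO before transplant, the NF-Y subunit gene Nfyb at 1.77 and Creb1 at 1.18. With upper-quartile normalization 1 was called higher, and with 1 library left out 0 to 1. After transplant none passed by edgeR, with 3 lower at an unadjusted p under 0.05 and 2 and 1 called lower by DESeq2 and by voom with limma. The interaction of 6 was called lower, among them Nfyb at -2.07, Atf1 at -1.76, Nfyc at -1.30 and Rfx5, which binds the X box of these promoters, at -2.10, and with upper-quartile normalization 1 was. Over the 1984 abundant genes 695 had an interaction called lower and 61 one called higher. Before transplant 375 of these genes were called higher, and after it 57.7% were lower at an unadjusted p under 0.05 by edgeR.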

How the data were processed

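RNA from 12 spleen samples was sequenced after full-length cDNA synthesis (SMARTseq HT) and Nextera XT library preparation, which do not mark strand. The authors pseudoaligned reads with kallisto 0.46.2 and deposited, per transcript, estimated counts and TPM. The labels name mm9, and transcript IDs were matched here to GENCODE M21 (GRCm38). Of 117497 transcripts 116428 matched (99.1%), and unmatched ones held 0.282% to 0.386% of counts. Estimated counts were summed per gene and rounded, and libraries held 17103415 to 49486745 of them. Genotypes were compared within a stage (6 libraries), and the interaction and the transplant comparisons were fitted on all 12, with edgeR 4.0.16 (TMM, filterByExpr, quasi-likelihood test, Benjamini-Hochberg adjustment over all genes, call at 0.05). Ratios of TPM were compared by two-sided exact permutation tests. Alternatives were upper-quartile normalization, DESeq2 1.42.0, voom and limma 3.58.1, limma on log2(TPM + 1), a scale on which changes of low values come out smaller, for genes with a mean TPM of at least 1, no filter, a replicate block, other sets of libraries, and each library left out. Ratios over protein-coding models and the sum of H2-K1 and H2-D1 alone were added after seeing the data. Libraries of a group differed by more than sampling noise. Named pathway genes were, in each list, up to 4 called genes of smallest p. The class I genes and all lists were chosen with earlier results of these data known. The genotype fits were also run on simulated counts with the same spread setting for every gene and no library effects. These settings are unlike the real libraries, so that run does not bear on how stable the calls are.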

Additional observations from a re-analysis of the deposited data

Results flagged for a closer look

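By the interaction test on all 12 libraries, the genotype difference changed between Pre-Tx and Post-Tx in 2 of the 10 class I genes. It did so too in 17 named genes of the lists. In each the value was negative, meaning that TCF-1 cKO stood lower against WT after transplant than before it. For Nlrc5 it was -1.94 and for B2m -0.99 on the log2 scale. Among the other heavy chains it was -2.06 for H2-Q6, -1.35 for H2-Q7, -1.23 for Cd1d1 and -0.95 for H2-M3. Among folding and trimming partners it was -2.20 for Erap1, -1.64 for Pdia3, -1.63 for Canx and -1.41 for Hspa5. Among interferon signalling genes it was -1.97 for Jak1, -1.74 for Ifnar1, -1.67 for Ifngr1 and -1.18 for Irf9. Among promoter factors it was -2.10 for Rfx5, -2.07 for Nfyb, -1.76 for Atf1, -1.40 for Creb1 and -1.30 for Nfyc. Over all genes 2469 of 21434 were called lower and 3665 higher, and with upper-quartile normalization 720 and 4865. Over the 1984 abundant genes 695 were called lower and 61 higher, with a median of -0.66. The named list genes were picked as called genes of smallest p, and their direction was not tested against that of abundant genes. Pre-Tx and Post-Tx libraries also differ in B cell content, which cannot be told apart from transplant.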

How the results depend on the processing

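Of 516 log2 fold changes under other settings, those of all 10 class I genes in the genotype comparisons and the interaction and of the called genes in the transplant comparisons, 431 kept their direction and side of the threshold, 34 lost and 39 gained a call, and 12 changed sign. For the 8 genes not called with transplant, 24 of 152 values changed sign and 9 gained a call in WT, and 37 of 152 and 4 in TCF-1 cKO. The causes were not tested. With upper-quartile normalization 6 class I genes were called before transplant (all lower) and 0 after it, 1 in the interaction, and 1 in WT and 0 in TCF-1 cKO with transplant, against 1, 1, 2, 2 and 2 in the reported fits. On log2(TPM + 1) 0 were called after transplant and 1 in the interaction, and 8 in WT and 5 in TCF-1 cKO, all higher, with transplant, where 4120 and 4872 of 16723 genes were called higher. After transplant DESeq2 called 7, voom and limma 7, no filter 2, and all 12 libraries in 1 fit 0, and voom and limma called 4 in the interaction. With 1 library left out the counts ran from 0 to 1 before transplant, 0 to 6 after it, 1 to 4 in the interaction, 1 to 4 in WT and 0 to 2 in TCF-1 cKO. Signs changed in the interaction with upper-quartile normalization for H2-K1 (0.08), H2-D1 (0.17), Tap1 (0.33), Tap2 (0.34), Tapbp (0.44), Psmb8 (0.55), Psmb9 (0.40) and Psmb10 (0.58). Before transplant on TPM they changed for H2-K1 (0.01) and H2-D1 (0.05). The interaction of Psmb10 ran from -0.55 to 0.01 with 1 library left out, above 0 without TCF-1 cKO Pre-Tx replicate 3 or WT Pre-Tx replicate 1. The summed heavy chains in WT with transplant went from 0.11 to -0.04 with H2-K1 and H2-D1 alone. All ratios kept their side of the threshold, which 3 against 3 could not pass.

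The labels number replicates alike in each group but do not say that same-numbered libraries are pairs, and the reported fits did not pair them. Correlations of same-numbered deviations were -0.095 to 0.068 before transplant. After transplant they were 0.084, 0.335 and 0.216 for replicates 1, 2 and 3, all above 0. What same-numbered Post-Tx libraries share was not tested, and the fits without a block leave it out. With the replicate number as a block 10 class I genes were called lower after transplant, as were 1795 of 19287 genes, 1 before it, 2 in the interaction, and 2 in WT and 1 in TCF-1 cKO with transplant. Over all genes 2413 were called before transplant, 4066 by DESeq2, 3665 with all 12 libraries in 1 fit and 14 to 2611 with 1 library left out, the fewest without WT replicate 1. After transplant 1283 were called, 798 with upper-quartile normalization, 3727 by DESeq2, 2850 by voom and limma, 2205 without a filter, 568 on TPM, 3257 with the block, 137 with all 12 libraries in 1 fit and 6 to 3209 with 1 left out, the fewest without TCF-1 cKO replicate 2. The interaction called 6134, 3537 on TPM and 3013 to 7297 with 1 left out. The share of called genes that were higher was 60.1% before and 52.9% after transplant, and 76.8% and 87.0% on TPM.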
